A study of Homo sapiens with 22 samples.

Results

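The proteasome probes were all probes of the deposited table whose single gene symbol begins with PSMA, PSMB, PSMC, PSMD, PSME, PSMF or PSMG, or is POMP or ADRM1. This rule gave 45 of the 14257 probes, covering 40 of the 7302 genes that the annotation names by a single symbol. Of the 11606 probes with values in Mia-PaCa-2, 43 were proteasome probes, and of the 7975 in SK-MEL-28, 15 were, with 13 probes shared by the lines. The symbols of 42 probes, for 37 genes, name subunits, activators or assembly chaperones. The other 3 probes, for PSMA3-AS1, PSMD7-DT and PSME3IP1, carry the prefix but are no subunits, and 8 further probes that list a proteasome gene among several symbols were left out. The annotation gave no RefSeq mRNA accession for 7 of the 45 probes, among them those for PSMB5, PSMC2, PSMG4 and the PSMA5 probe 358053.

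The proteasome is the large protease that degrades ubiquitin-tagged proteins. Its 20S core is a barrel of outer alpha rings, which gate the entrance, and inner beta rings, in which PSMB5, PSMB6 and PSMB7 carry the chymotrypsin-like, caspase-like and trypsin-like activities. The 19S cap adds ATPases that unfold the substrate and non-ATPases that bind and remove ubiquitin, other activators can dock in its place, and dedicated chaperones assemble the particle. When the proteasome is inhibited, cells are known to raise the transcription of its subunits together through the factor NRF1, encoded by NFE2L1.

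RNA was measured on CodeLink whole genome arrays, with 1 sample per array, in the human pancreatic carcinoma line Mia-PaCa-2 and the human melanoma line SK-MEL-28. The treated cells of each line had received 1 µM Amblyomin-X for 4 h, and the controls of each line were left untreated. Amblyomin-X, a Kunitz-type protease inhibitor first found in a tick and made as a recombinant protein, has been reported to inhibit the proteasome in tumour cells, and the comparison asked how the lines responded to it. Mia-PaCa-2 had 6 treated and 6 untreated arrays and SK-MEL-28 had 5 of each kind, hybridised with cRNA from separate preparations. Each tumour type was thus represented by 1 line. No label says that the arrays came from separate cultures, and the p-values measure the spread between arrays alone, which may be technical.

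The median unnormalized intensity of an array was between 68.1 and 156 in Mia-PaCa-2 and between 55.4 and 165 in SK-MEL-28. All levels here are log2 of the normalized intensity deposited by the authors, whose median was 6.63 on the Mia-PaCa-2 arrays and 6.61 on the SK-MEL-28 arrays. Untreated Mia-PaCa-2 arrays 4 and 5 stood apart from the other 10 on the first principal component of the remaining probes (0.63 and 0.65, against −0.21 to −0.035). Treated SK-MEL-28 arrays 3 and 5 stood apart from the other 8 on the second (0.32 and 0.67, against −0.40 to 0.10). These 4 arrays were picked with earlier results of these data known, and results are given with and without them. On some probes, not all, they lay near the levels of the other line. PSMD8 was at 10.10 and 10.67 on the SK-MEL-28 pair, 4.82 to 5.78 on the other 8 and 10.77 to 11.92 in Mia-PaCa-2. PSMA3-AS1 was at 7.45 and 7.62 on the Mia-PaCa-2 pair, 5.68 to 6.68 on the other 10 and 6.81 to 8.34 in SK-MEL-28. Whether these arrays were mixed or mislabelled was not tested. The label of the melanoma line could not be checked, since 0 of 8 melanocyte markers had a probe with values in either line. Of 7 epithelial markers, 4 had values in Mia-PaCa-2 and 1, MUC1, in SK-MEL-28.

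The promoters of these genes can be set beside a known NRF1 site. RefSeq promoter windows of GRCh38.p14, from 250 bases before to 50 after the start site, were found for 31 of the 37 genes, with 36 windows in all. The core of the antioxidant response element, TGACNNNGC on either strand, to which NRF1 is known to bind, occurred in 12 of these 36 windows (33.3%), against 4687 of all 35116 windows in the table (13.3%). Taking the first window of each gene gave 12 of 31 genes (38.7%), against 3702 of 27305 (13.6%). The 12 genes were PSMB3, PSMB9, PSMC4, PSMD1, PSMD3, PSMD5, PSMD12, PSME1, PSME2, PSME4, PSMG1 and PSMG2. A match describes these letters only and is no evidence of binding. Printed here are PSMB3 and the matching window of PSMG2, whose other listed window holds no match, and PSMB2, which holds none and was the only member whose treated and untreated Mia-PaCa-2 arrays did not overlap. Capitals mark the match, whose first printed base lay 104 bases before the start site in PSMB3 and 39 bases before it in PSMG2. The windows were chr17:38752491-38752790 on the plus strand for PSMB3, chr18:12658488-12658787 on the plus strand for PSMG2 and chr1:35641477-35641776 on the minus strand for PSMB2.
PSMB3: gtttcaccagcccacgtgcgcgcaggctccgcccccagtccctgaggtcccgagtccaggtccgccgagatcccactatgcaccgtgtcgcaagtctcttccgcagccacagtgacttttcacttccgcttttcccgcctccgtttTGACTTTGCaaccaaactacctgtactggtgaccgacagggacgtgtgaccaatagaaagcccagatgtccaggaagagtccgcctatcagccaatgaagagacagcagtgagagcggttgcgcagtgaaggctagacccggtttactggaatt
PSMG2: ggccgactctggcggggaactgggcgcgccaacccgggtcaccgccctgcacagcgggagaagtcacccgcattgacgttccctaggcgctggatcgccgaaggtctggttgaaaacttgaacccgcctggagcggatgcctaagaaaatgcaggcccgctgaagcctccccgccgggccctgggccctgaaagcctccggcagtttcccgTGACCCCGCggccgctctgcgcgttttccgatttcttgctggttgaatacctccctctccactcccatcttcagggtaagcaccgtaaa
PSMB2: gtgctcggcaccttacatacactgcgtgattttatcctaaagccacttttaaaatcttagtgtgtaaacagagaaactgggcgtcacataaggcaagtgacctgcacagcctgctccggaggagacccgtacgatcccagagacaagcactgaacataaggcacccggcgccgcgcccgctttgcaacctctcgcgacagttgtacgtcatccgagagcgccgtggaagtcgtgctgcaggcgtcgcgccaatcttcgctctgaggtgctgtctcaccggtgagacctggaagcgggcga

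In Mia-PaCa-2, no proteasome probe had an adjusted p under 0.05 by limma, with Benjamini-Hochberg adjustment over all probes. The count was 0 of 43 members and 0 of 11604 probes tested (0.0%), and the smallest adjusted p of a member was 0.501. Before adjustment, 9 of the 43 members had p under 0.05 (20.9%), against 1113 of all probes (9.59%). PSMB1, PSMB2, PSMB3, PSMB6, PSMC2, PSMD4 and PSMG3 were the 7 with higher means on treated arrays (all probes 5.19%), and PSMB5 and PSMB10 the 2 with lower ones (all probes 4.4%). Of the 43 log2 changes, treated minus untreated, 30 were positive and 13 negative with a median of 0.22, against a median of 0.01 and 51.2% positive over all probes. By subcomplex the medians were 0.50 in the beta ring, 0.34 in the assembly chaperones, 0.30 in the ATPases and 0.22 in the non-ATPases. They were 0.19 in the activators, 0.11 in the alpha ring and −0.11 in the inducible beta subunits. Each median rests on few probes, which in the beta ring ranged from −0.85 to 0.55, and differences between subcomplexes were not tested.

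Much of this pattern went with untreated arrays 4 and 5. Without them, the median over the 43 members was 0.06, with 25 changes positive and 18 negative, and 3 members had an unadjusted p under 0.05 (PSMB1 and PSMC2 higher, PSMB10 lower), against 5.48% of all probes. The medians were then 0.29 in the beta ring, 0.14 in the ATPases, 0.11 in the chaperones, 0.11 in the activators, 0.04 in the non-ATPases, −0.0022 in the alpha ring and −0.02 in the inducible subunits. Leaving out untreated array 4 alone gave a median of 0.11 and 5 members with p under 0.05 (all probes 5.94%), and untreated array 5 alone 6 members (all probes 5.54%). Leaving out treated array 1, 3 or 5 gave 5 members each, and the share of all probes was then 7.15%, 8.39% and 7.37%.

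**Figure D1:**
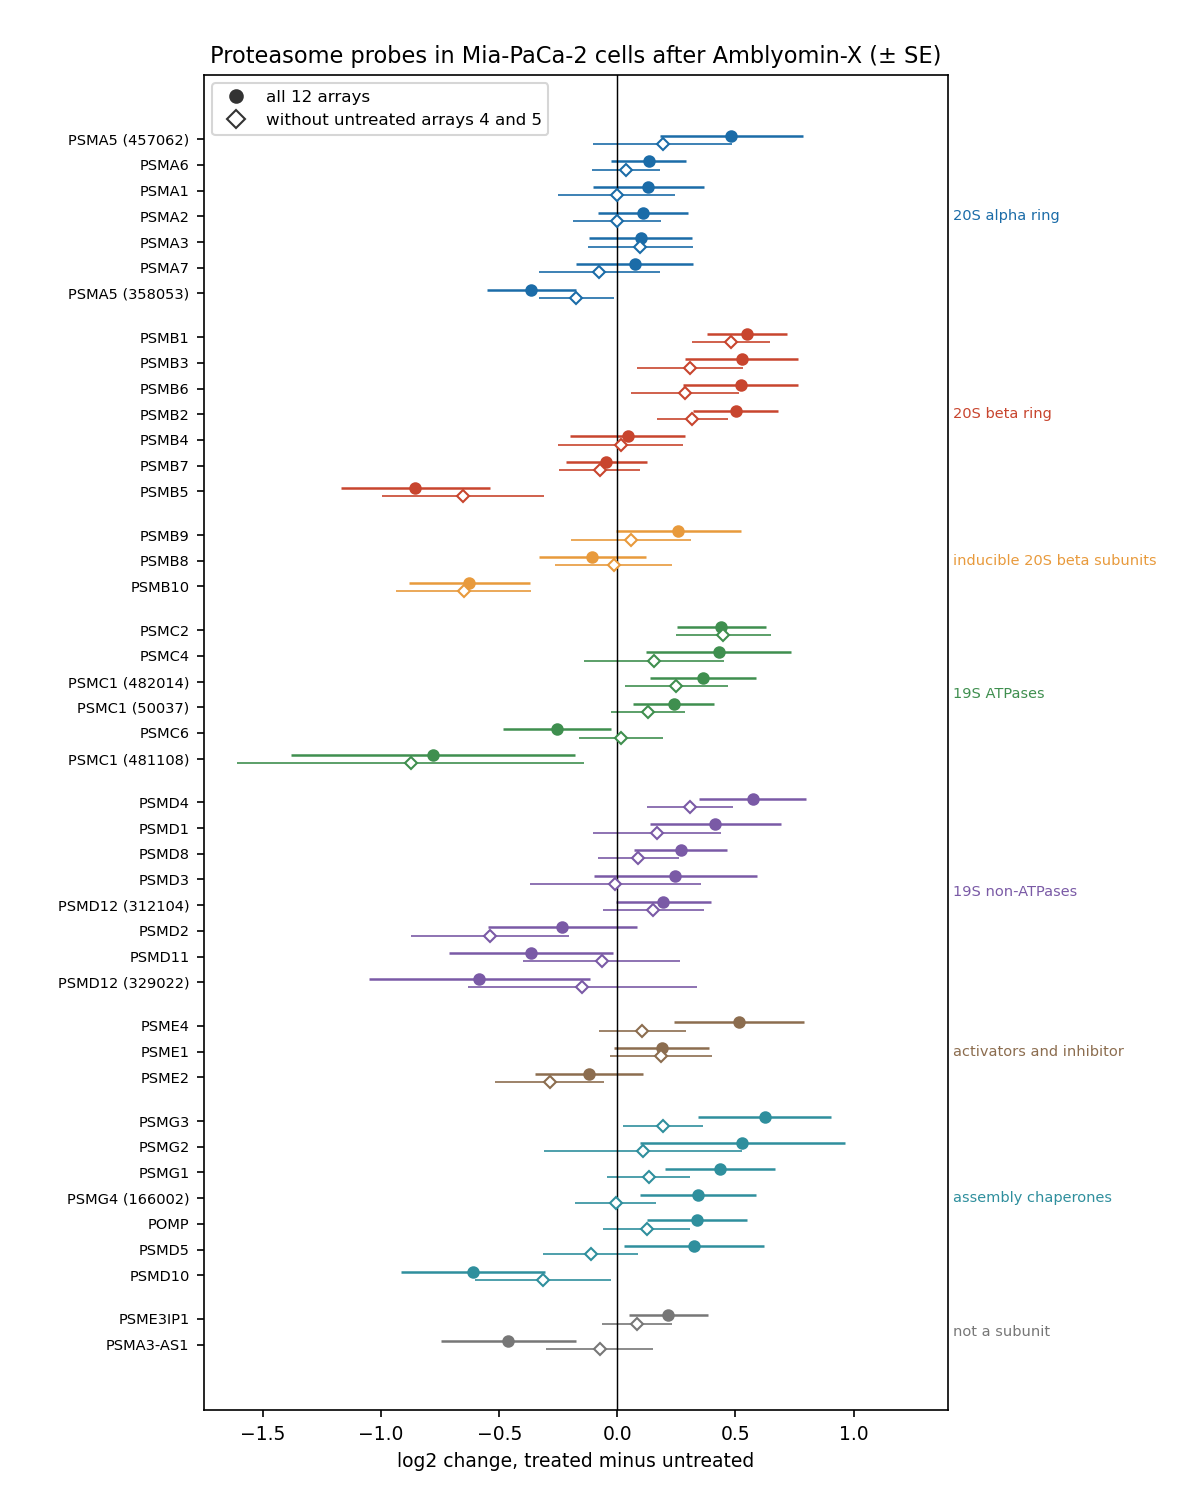
Log2 change of each proteasome probe in Mia-PaCa-2, treated minus untreated, with its SE, grouped by subcomplex. Filled circles use all 12 arrays and open diamonds leave out untreated arrays 4 and 5; the beta ring probes PSMB1, PSMB2, PSMB3 and PSMB6 lie between 0.50 and 0.55 with all arrays and between 0.29 and 0.48 without those arrays, while PSMB5 and PSMB10 stay below 0 in both.

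The beta ring, which holds the catalytic sites, had 5 positive and 2 negative changes. Of its 7 probes, 5 had an unadjusted p under 0.05 (71.4%, against 9.59% of all probes). Without untreated arrays 4 and 5 the count was 1 (14.3%, against 5.48% of all probes). With the replicate numbers as a block it was 3 (42.9%, against 10.4% of all probes). PSMB1, a structural beta subunit, had a lowest, median and highest log2 level of 8.48, 8.82 and 8.93 on treated arrays, against 7.99, 8.13 and 8.58 on untreated arrays. On 4 of 6 treated arrays its level was above every untreated one. The log2 change of PSMB1 was 0.55 ± 0.17 (SE; 1.46-fold; limma, adjusted p = 0.501) and 0.48 ± 0.17 without untreated arrays 4 and 5. PSMB2, also structural, had 11.85, 11.93 and 12.29 on treated arrays, against 11.06, 11.57 and 11.80 on untreated arrays. Every treated array lay above every untreated array, as for 0.284% of all probes in that direction. The log2 change of PSMB2 was 0.50 ± 0.18 (1.41-fold; limma, adjusted p = 0.501) and 0.32 ± 0.15 without untreated arrays 4 and 5, whose levels of 11.06 and 11.21 were the lowest of the 12.

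The changes of the catalytic subunits PSMB5 and PSMB6 differed in sign, that of PSMB7 was small beside its SE, and none had an adjusted p under 0.05. PSMB5 had 4.01, 4.92 and 5.76 on treated arrays, against 5.10, 5.63 and 6.33 on untreated arrays. All 12 levels lay below the array median of 6.63, and 3 treated arrays (2, 4 and 5) lay below every untreated array while the other 3 overlapped them. The log2 change of PSMB5 was −0.85 ± 0.31 (0.553-fold; limma, adjusted p = 0.501), and −0.66 ± 0.34 without untreated arrays 4 and 5. PSMB6 had 12.26, 12.54 and 13.30 on treated arrays, against 11.42, 12.11 and 12.75 on untreated arrays, with treated array 4 the highest and untreated array 5 the lowest. PSMB6 thus had a log2 change of 0.52 ± 0.24 (limma, adjusted p = 0.501) and 0.29 ± 0.23 without untreated arrays 4 and 5. PSMB7 had 5.70, 5.86 and 6.30 on treated arrays, against 5.64, 5.94 and 6.18 on untreated arrays, and the groups covered the same range. Its levels, like those of PSMB5, all lay below the array median. For PSMB7 the log2 change was −0.05 ± 0.17, with a 95% interval of −0.41 to 0.31. Of the remaining structural subunits, PSMB3 had a log2 change of 0.53 ± 0.24 (limma, adjusted p = 0.501), with 1 treated array above every untreated one, and PSMB4 one of 0.04 ± 0.24. Without untreated arrays 4 and 5 these were 0.31 ± 0.22 and 0.01 ± 0.27. Bulk RNA cannot tell fewer cells with a transcript from less of it per cell.

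**Figure D2:**
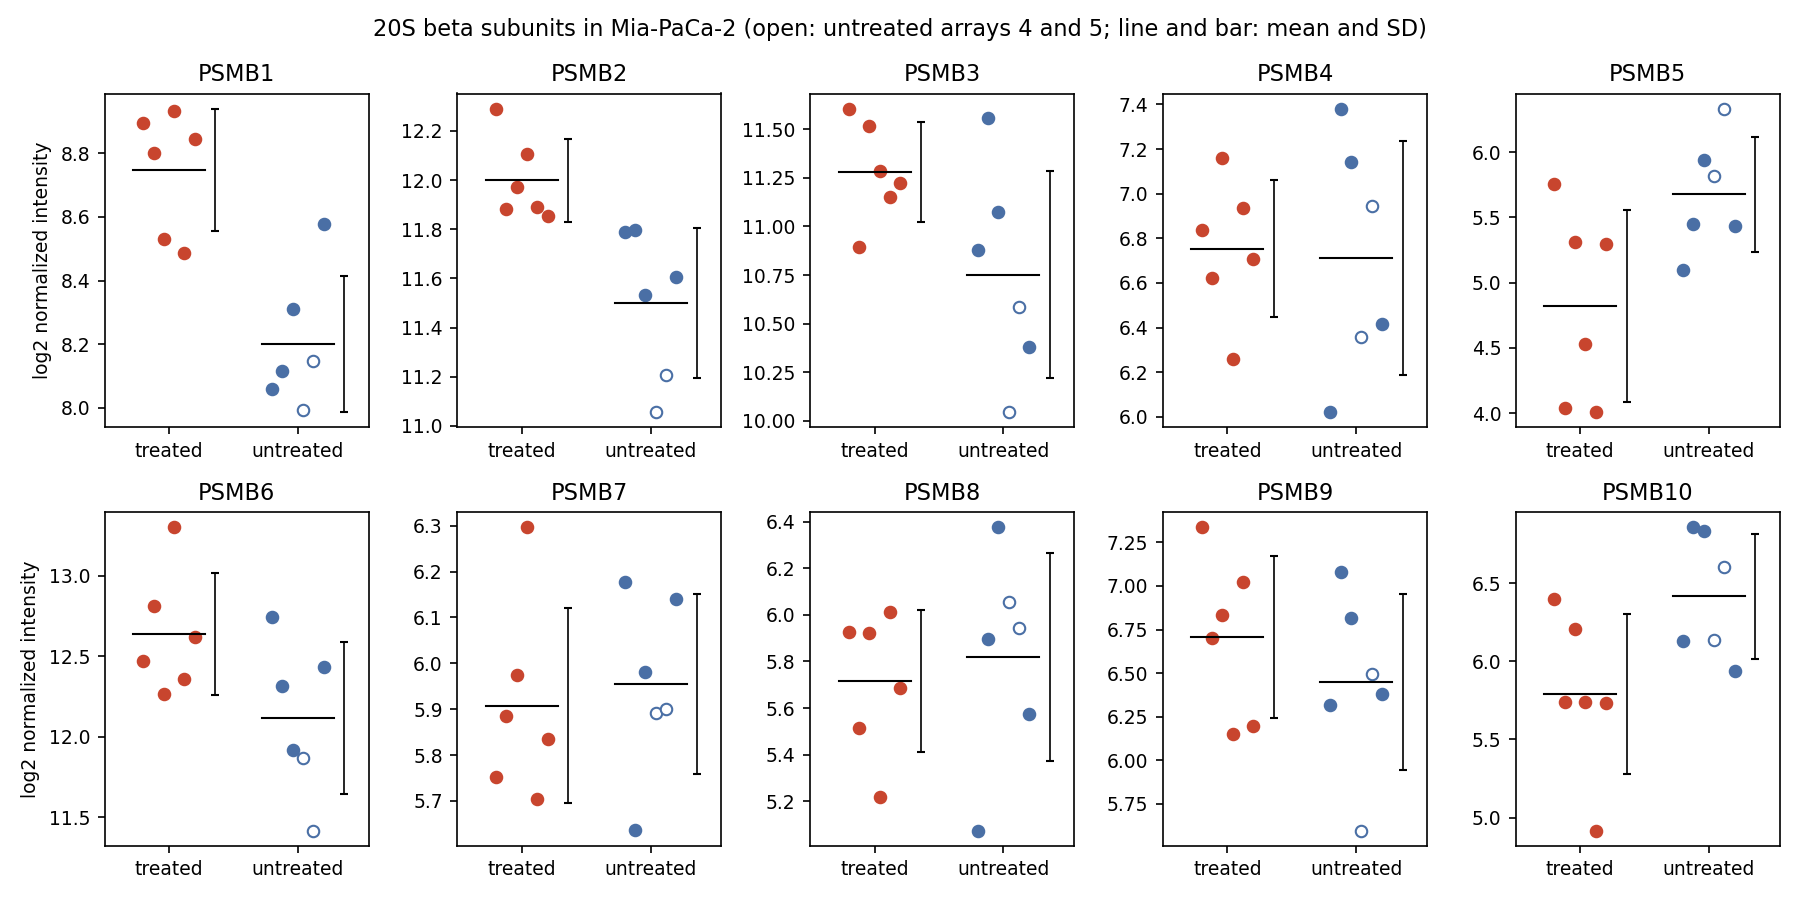
Log2 normalized intensity of the beta subunits on each Mia-PaCa-2 array, treated left of untreated, 1 panel per probe with its own axis. Points are arrays, open points are untreated arrays 4 and 5, and lines and bars give the mean and SD; PSMB2 is the probe whose groups do not overlap, and 3 treated arrays of PSMB5 lie between 4.01 and 4.53, below all untreated arrays.

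PSMB8, PSMB9 and PSMB10 replace the constitutive catalytic subunits in the immunoproteasome of interferon-exposed cells. They did not move as a group, with 1 positive and 2 negative changes. PSMB10 had 4.92, 5.74 and 6.40 on treated arrays, against 5.94, 6.37 and 6.86 on untreated arrays. Of the treated arrays, 4 lay below every untreated array and arrays 1 and 3 lay among them. Its log2 change was −0.63 ± 0.26 (0.648-fold; limma, adjusted p = 0.501), and −0.65 ± 0.29 without untreated arrays 4 and 5. PSMB9 had 6.15, 6.77 and 7.34 on treated arrays, against 5.60, 6.44 and 7.08 on untreated arrays, with a log2 change of 0.26 ± 0.27 (0.06 ± 0.25 without those arrays). PSMB8 had 5.22, 5.81 and 6.01 on treated arrays, against 5.07, 5.92 and 6.38 on untreated arrays, with a log2 change of −0.11 ± 0.23 (−0.016 ± 0.25). For both, the ranges of the groups overlapped over most of their length. B2M, the light chain of the MHC class I molecules that present proteasome products and the only one of 10 listed antigen presentation genes with values, had a log2 change of 0.05 ± 0.19.

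The alpha ring showed small changes, with 6 positive and 1 negative and no unadjusted p under 0.05. PSMA5 was read by probes of opposite sign. Probe 457062 had 11.81, 12.04 and 13.38 on treated arrays, against 10.86, 11.78 and 12.47 on untreated arrays, and a log2 change of 0.48 ± 0.30 that was 0.19 ± 0.29 without untreated arrays 4 and 5. Probe 358053 had 9.75, 10.01 and 10.42 on treated arrays, against 10.09, 10.27 and 10.85 on untreated arrays, with 5 of 6 treated arrays below every untreated one. Probe 358053 had a log2 change of −0.36 ± 0.19 (limma, adjusted p = 0.501) and −0.17 ± 0.16 without those arrays. Untreated arrays 4 and 5 were the lowest of the 12 for probe 457062 and the highest for probe 358053. PSMA6 had 12.05, 12.21 and 12.38 on treated arrays, against 11.80, 12.10 and 12.36 on untreated arrays, a log2 change of 0.13 ± 0.16 (0.04 ± 0.14 without untreated arrays 4 and 5). The other 4 alpha subunits, PSMA1, PSMA2, PSMA3 and PSMA7, had log2 changes from 0.07 ± 0.25 to 0.13 ± 0.23, and −0.08 to 0.10 without untreated arrays 4 and 5.

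Among the ATPases, the motor of the 19S cap, 4 changes were positive and 2 negative. PSMC2 had 6.34, 6.78 and 7.25 on treated arrays, against 6.11, 6.31 and 6.46 on untreated arrays. On 4 of 6 treated arrays its level was above every untreated array, and treated arrays 2 and 6 lay among them. For PSMC2 the log2 change was 0.44 ± 0.19 (1.36-fold; limma, adjusted p = 0.501) and 0.45 ± 0.20 without untreated arrays 4 and 5. PSMC1 had 3 probes that did not agree in sign. Probe 482014 had 6.82, 7.36 and 7.78 on treated arrays, against 6.35, 7.05 and 7.31 on untreated arrays, and a log2 change of 0.36 ± 0.22. Probe 50037 had 8.54, 8.58 and 8.89 on treated arrays, against 8.14, 8.34 and 8.80 on untreated arrays, and a log2 change of 0.24 ± 0.17 that was 0.13 ± 0.16 without untreated arrays 4 and 5. Probe 481108 had 4.12, 7.95 and 8.74 on treated arrays, against 7.81, 8.11 and 9.12 on untreated arrays. Its log2 change was −0.78 ± 0.60, and −0.11 without treated array 6, since the other 5 treated arrays lay at 7.70 to 8.74. PSMC4 had a log2 change of 0.43 ± 0.31 (0.16 ± 0.30 without untreated arrays 4 and 5) and PSMC6 one of −0.26 ± 0.23 (0.01 ± 0.18 without them).

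The non-ATPases of the cap had 5 positive and 3 negative changes. PSMD4, a receptor for ubiquitin chains, had 8.97, 9.44 and 9.63 on treated arrays, against 8.0, 8.91 and 9.24 on untreated arrays. Its level was above every untreated array on 4 of 6 treated arrays. The log2 change of PSMD4 was 0.57 ± 0.23 (1.49-fold; limma, adjusted p = 0.501) and 0.31 ± 0.18 without untreated arrays 4 and 5, which held its lowest levels. PSMD1, a scaffold of the base, had 9.24, 9.95 and 10.17 on treated arrays, against 8.59, 9.36 and 10.20 on untreated arrays, and a log2 change of 0.42 ± 0.28. PSMD8, a lid subunit, had 11.45, 11.67 and 11.83 on treated arrays, against 10.77, 11.31 and 11.92 on untreated arrays, and a log2 change of 0.27 ± 0.20. Both treated ranges lay inside the untreated range, and without untreated arrays 4 and 5 the log2 changes were 0.17 ± 0.27 for PSMD1 and 0.09 ± 0.17 for PSMD8. The probes of the lid subunit PSMD12 differed in sign. Probe 329022 had 8.59, 10.37 and 11.12 on treated arrays, against 9.30, 10.92 and 12.06 on untreated arrays, a log2 change of −0.58 ± 0.47 that was −0.15 ± 0.49 without untreated arrays 4 and 5. Probe 312104 had 6.18, 6.80 and 7.20 on treated arrays, against 6.36, 6.65 and 6.73 on untreated arrays, a log2 change of 0.20 ± 0.20 that was 0.15 ± 0.21 without them. PSMD2 and PSMD3, a base scaffold and a lid subunit, had log2 changes of −0.23 ± 0.31 (6 treated and 5 untreated arrays with a value) and 0.24 ± 0.34, and the lid subunit PSMD11 had −0.37 ± 0.35. Without untreated arrays 4 and 5 these were −0.54 ± 0.33 for PSMD2, −0.0087 ± 0.36 for PSMD3 and −0.07 ± 0.33 for PSMD11.

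Activators that can dock on the core in place of the 19S cap were read by 3 probes, with 2 positive changes and 1 negative. PSME4, which encodes PA200, had 9.07, 9.21 and 9.32 on treated arrays, against 7.72, 8.85 and 9.68 on untreated arrays. The treated arrays lay close together inside the untreated range, whose low end was set by untreated arrays 4 and 5 (7.72 and 8.03). Its log2 change was 0.52 ± 0.28 (limma, adjusted p = 0.501), and 0.11 ± 0.19 without those arrays. PSME1 and PSME2 encode the subunits of PA28, the activator that interferon induces. PSME1 had 6.99, 7.62 and 8.21 on treated arrays, against 7.17, 7.50 and 7.64 on untreated arrays, a log2 change of 0.19 ± 0.20. PSME2 had 9.43, 10.00 and 10.16 on treated arrays, against 9.51, 9.92 and 10.63 on untreated arrays, a log2 change of −0.12 ± 0.23 (−0.29 ± 0.23 without untreated arrays 4 and 5).

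Assembly chaperones had 6 positive changes and 1 negative, and all 6 positive ones were smaller or negative without untreated arrays 4 and 5. PSMG3, which helps build the alpha ring, had 7.64, 7.88 and 8.27 on treated arrays, against 6.16, 7.55 and 7.95 on untreated arrays. Its log2 change was 0.62 ± 0.28 (1.54-fold; limma, adjusted p = 0.501) and 0.19 ± 0.17 without untreated arrays 4 and 5, at 6.16 and 6.64. PSMG1, a partner of PSMG2 in alpha ring assembly, had 10.60, 10.78 and 11.07 on treated arrays, against 9.64, 10.48 and 11.02 on untreated arrays. The log2 change of PSMG1 was 0.43 ± 0.23, and 0.13 ± 0.18 without untreated arrays 4 and 5. PSMG4 (probe 166002) had 9.01, 9.42 and 9.62 on treated arrays, against 8.23, 9.19 and 9.62 on untreated arrays, a log2 change of 0.34 ± 0.25 that was −0.01 ± 0.17 without them. POMP, which brings in the beta subunits, had a log2 change of 0.34 ± 0.21 (0.12 ± 0.18), PSMG2 one of 0.53 ± 0.43 (0.11 ± 0.42) and PSMD5, a chaperone of the 19S base, one of 0.32 ± 0.30 (−0.11 ± 0.20), where brackets give the value without untreated arrays 4 and 5. PSMD10, another chaperone of the base, was the negative one. It had 6.62, 7.27 and 7.54 on treated arrays, against 6.91, 7.95 and 8.83 on untreated arrays, and a log2 change of −0.61 ± 0.31 (limma, adjusted p = 0.501), or −0.32 ± 0.29 without those arrays. Of the probes that are no subunits, PSMA3-AS1 had a log2 change of −0.46 ± 0.29 and PSME3IP1 one of 0.22 ± 0.17, which were −0.07 ± 0.23 and 0.08 ± 0.15 without those arrays.

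Untreated arrays 4 and 5 had lower levels of many members. Of the 42 members with a value on every Mia-PaCa-2 array, 13 lay below the other 10 arrays on both (all probes 16.3%) and 3 above them (all probes 20.7%). The median difference from the other 10 arrays was −0.41 over these members and −0.09 over all probes. Among the 13 below, the difference was −1.41 in PSMG3, −1.29 in PSME4 and −1.24 in PSMD5. PSMG2 at −1.33 and PSMD12 probe 329022 at 1.39 differed as much on average, but the pair overlapped the other arrays in both. The 3 above were PSMC6, PSMA3-AS1 and PSMA5 probe 358053. Of the epithelial markers, KRT8, KRT18, KRT19 and MUC1 with 5 probes, 2 had positive and 3 negative treated minus untreated changes, with a median of −0.41, or −0.78 without untreated arrays 4 and 5. On untreated arrays 4 and 5 the markers went different ways. KRT19 stood there at 6.43 and 6.59, against 7.18 to 8.87 on the other untreated arrays, and KRT18 probe 239004 at 6.12 and 6.34, against 6.67 to 7.06. MUC1 stood there at 7.20 and 7.63, against 6.46 to 7.43, and KRT8 at 7.26 and 8.60, against 7.31 to 10.03. KRT18 probe 254041 had no value on untreated arrays 1 and 4 and on treated arrays 1 and 4. It stood at 13.08 on untreated array 5, against 13.08 to 13.75 on the other untreated arrays with a value. The part of these markers in the proteasome values was not tested.

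The 12 Mia-PaCa-2 arrays also divided in a way that crossed the treatment. The sign of the second principal component of the probes that are no members gave a set A of treated arrays 2, 4 and 6 with untreated arrays 1, 4 and 6, and a set B of the others. No label names such a batch. Without untreated arrays 4 and 5, 11 of 43 members did not overlap between the sets (25.6%, against 12.6% of all probes). PSMG2, PSMC4, PSMD1, PSMA1 and PSMD12 probe 329022 were higher on all set A arrays, and PSMD2, PSMD3, PSMB4, PSMB8, PSMB9 and PSME2 lower. PSMC4, for instance, lay at 12.29 to 12.97 on set A and at 11.47 to 11.87 on set B. PSMD3 lay at 6.89 to 7.75 on set A and at 7.96 to 8.64 on set B. With the set as a block in limma, 10 members had an unadjusted p under 0.05 (23.3%, against 12.2% of all probes). Within set A, the log2 changes of PSMB1, PSMB2 and PSMB5 were 0.65, 0.46 and −0.83, and within set B 0.45, 0.54 and −0.88. For these genes the set moved the value little, whereas the median of the alpha ring was 0.32 within set A and −0.12 within set B.

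**Figure D3:**
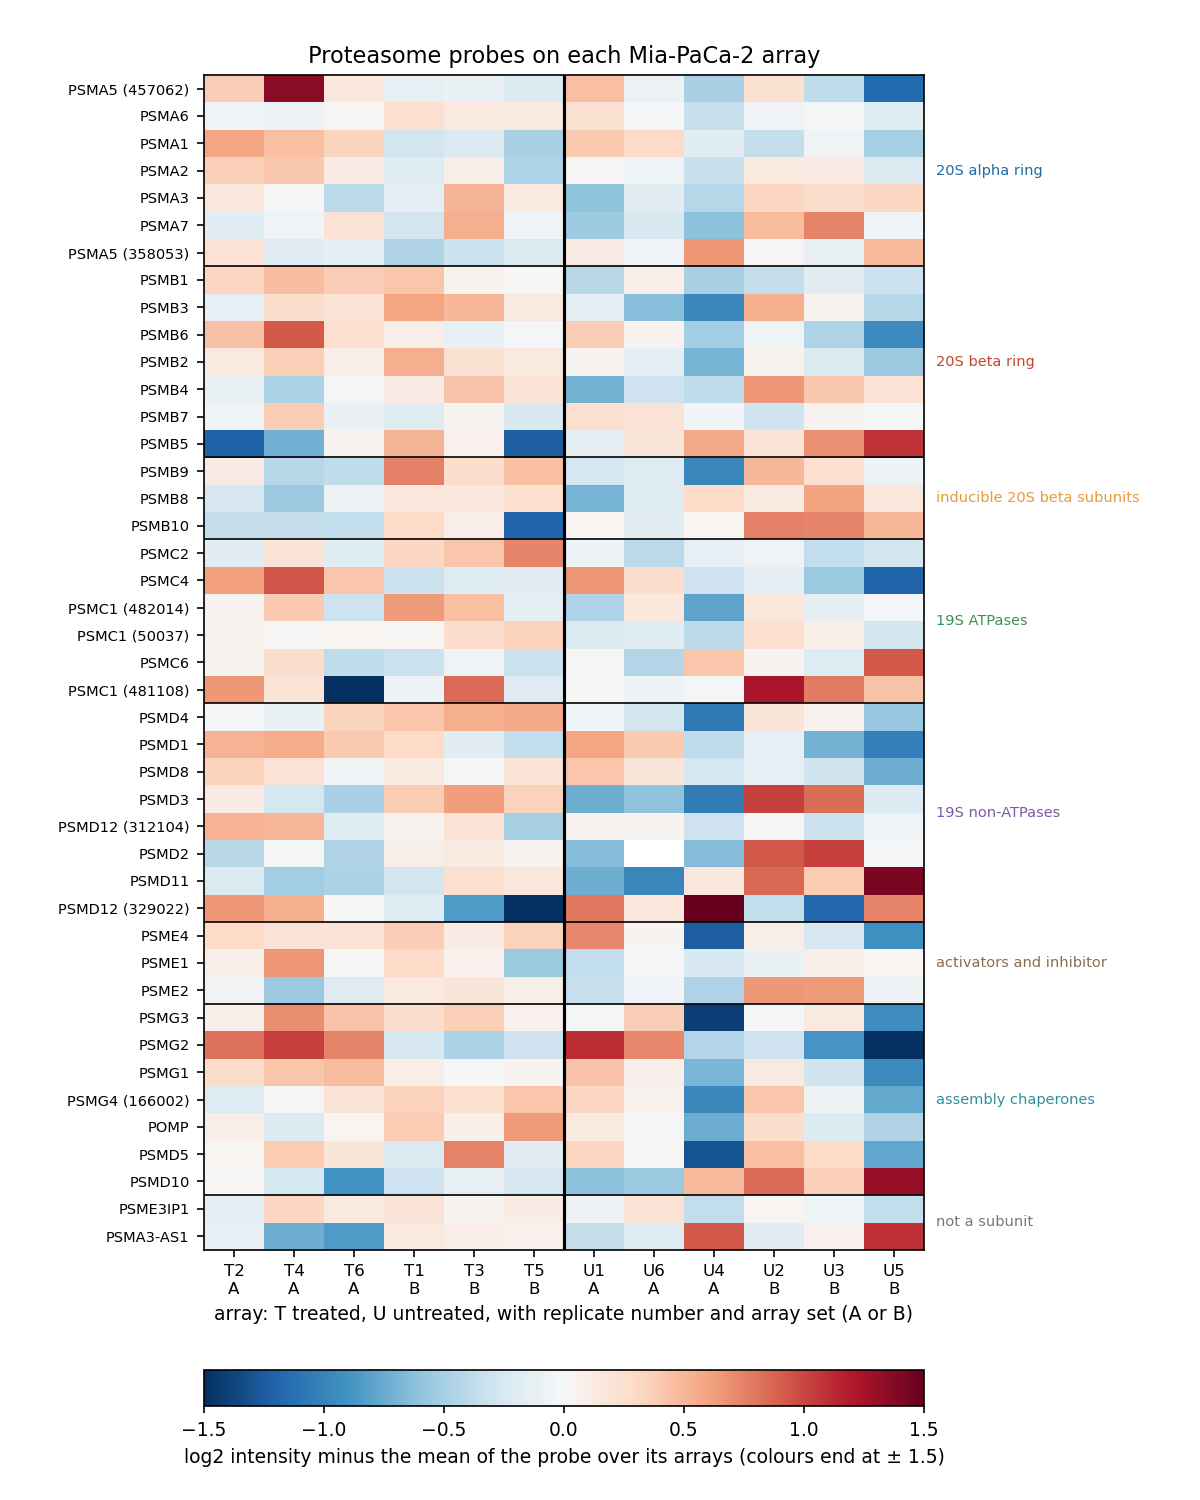
Deviation of each proteasome probe from its own mean on each Mia-PaCa-2 array, in log2 units, with treated arrays left of the black line and untreated arrays right of it, each ordered by array set. The columns of untreated arrays 4 and 5 are blue for most chaperones, and PSMD3 and PSMG2 mostly change colour between sets A and B in both conditions. Exceptions are PSMG2 on untreated array 4 and PSMD3 on treated array 2 and untreated array 5. The white cell of PSMD2 has no value.

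**Figure D4:**
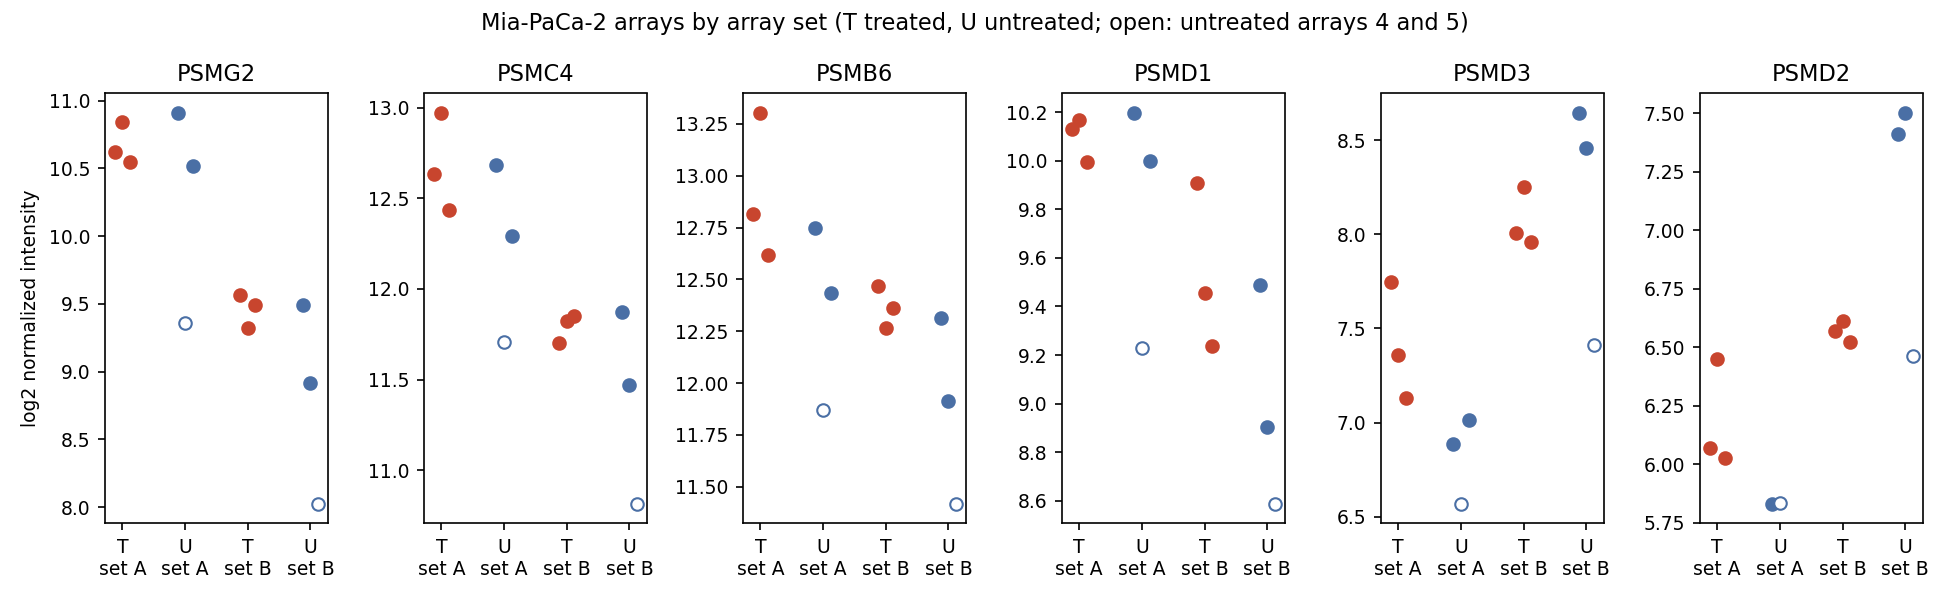
Log2 normalized intensity of 6 proteasome probes on the Mia-PaCa-2 arrays by array set and condition, with treated (T) left of untreated (U) in each set and untreated arrays 4 and 5 as open points. PSMG2, PSMC4, PSMB6 and PSMD1 are mostly higher in set A and PSMD3 and PSMD2 in set B, among treated and untreated arrays alike.

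In SK-MEL-28, where 15 proteasome probes had values, no member passed the threshold for adjusted p either. This does not show that the members were unchanged, since some log2 changes had large SEs, such as 1.06 for PSMD8 and 1.10 for PSMA1. By limma 0 of 15 had an adjusted p under 0.05 (all probes 0.0%) and 0 had an unadjusted p under 0.05, against 446 of 7973 probes (5.59%; 2.53% higher and 3.06% lower on treated arrays). In 0 of the 15 did every treated array lie above every untreated one (all probes 0.452%) or below (all probes 0.753%). The changes were 8 positive and 7 negative with a median of 0.09, against −0.05 and 42.6% positive over all probes. The replicate numbers were taken to pair these arrays, though only 3 of 5 pairs correlated best with their own number. With them as a block PSMA6 and PSMA5 probe 457062 had an unadjusted p under 0.05 (all probes 10.7%) and, in limma, an adjusted p of 0.458. The SEs given below for single members are from the fit without this block. With it they were smaller for some, at 0.17 ± 0.52 for PSMA1 and 0.30 ± 0.22 for PSMA2. Numbers 1 and 3 were the brighter arrays in both conditions, so the numbers and the brightness of the arrays went together. With brightness as the block, 0 members had an unadjusted p under 0.05 (all probes 9.48%). Without treated arrays 3 and 5, 0 members had an unadjusted p under 0.05 (all probes 2.61%), and the median was 0.05. Leaving out treated array 1, 2 or 4 gave 4, 2 and 3 such members, and the share of all probes was then 9.04%, 7.95% and 7.94%. The median was 0.24 without treated array 2, −0.09 without treated array 1, −0.05 without treated array 3 and −0.07 without untreated array 2.

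The largest values came from treated arrays 3 and 5. PSMD8 had 4.87, 5.55, 10.10, 5.69 and 10.67 on treated arrays 1 to 5, against 5.70, 5.77, 5.14, 4.82 and 5.78 on untreated arrays 1 to 5. PSMA5 probe 457062 had 6.23, 6.86, 10.34, 6.95 and 11.23 on treated arrays, against 6.41, 6.13, 6.10, 6.66 and 7.12 on untreated arrays. In both probes treated arrays 3 and 5 stood far above the other 8 arrays, which overlapped. The log2 change was 1.93 ± 1.06 for PSMD8 (limma, adjusted p = 0.838) and −0.07 ± 0.30 without treated arrays 3 and 5. For PSMA5 probe 457062 it was 1.84 ± 0.88 (limma, adjusted p = 0.838) and 0.20 ± 0.29 without them. PSMA5 probe 358053 had 10.05, 10.52, 9.90, 10.83 and 10.63 on treated arrays, against 9.96, 10.79, 9.90, 10.63 and 10.66 on untreated arrays. It had no such step, and its log2 change was −0.0022 ± 0.26, or 0.08 ± 0.29 without treated arrays 3 and 5. PSMB2 had 9.0, 9.05, 10.87, 8.70 and 10.88 on treated arrays, against 8.90, 8.72, 8.76, 8.82 and 8.69 on untreated arrays. PSMA6 had 9.37, 10.23, 11.07, 9.96 and 11.64 on treated arrays, against 9.42, 10.09, 9.50, 9.60 and 10.03 on untreated arrays. The same arrays were the highest in both, and the log2 changes were 0.92 ± 0.43 for PSMB2 (0.14 ± 0.17 without them) and 0.73 ± 0.38 for PSMA6 (0.13 ± 0.26 without them). Treated arrays 3 and 5 were above all other arrays for these 4 of the 15 members (all probes 9.65%) and below them for PSMD12 probe 329022 (all probes 12.6%).

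Most of the other members of SK-MEL-28 differed with the brightness of the array. The arrays fell into a bright set, treated arrays 1 and 3 and untreated arrays 1 and 3, with highest raw intensities of 24899 to 32409, and a dim set of the others, with 6140 to 12415. Without treated arrays 3 and 5, 11 of 15 members did not overlap between the sets (73.3%, against 37.6% of all probes). PSMA1 had 10.40, 7.26, 10.76, 5.34 and 9.13 on treated arrays 1 to 5, against 10.42, 6.60, 10.32, 7.53 and 7.17 on untreated arrays. The bright arrays of both conditions were at or above 10.32, and the log2 change was 0.17 ± 1.10 with all arrays and −0.74 ± 1.25 without treated arrays 3 and 5. PSMA2 was likewise at 9.99 to 10.64 on bright and 7.37 to 8.16 on dim arrays without treated arrays 3 and 5, and its log2 change was 0.30 ± 0.76 with all arrays and −0.14 ± 0.87 without those. PSMC6 and PSMD10 were higher on the bright arrays as well, with log2 changes of −0.25 ± 0.47 (−0.08 ± 0.53 without treated arrays 3 and 5) and −0.05 ± 0.46 (−0.05 ± 0.57), and PSMD11 with one of 0.13 ± 0.28 (0.05 ± 0.34). PSMG4 (probe 131037) was lower on the bright arrays. It had 6.20, 7.11, 6.05, 7.64 and 6.28 on treated arrays, against 6.67, 7.59, 6.69, 7.31 and 7.25 on untreated arrays, and a log2 change of −0.45 ± 0.33 that was −0.12 ± 0.35 without treated arrays 3 and 5. PSMB5 had 5.98, 5.30, 5.81, 6.0 and 5.92 on treated arrays, against 6.05, 5.30, 5.75, 6.10 and 6.06 on untreated arrays. The groups of PSMB5 covered the same range, with a log2 change of −0.05 ± 0.22 and a 95% interval of −0.52 to 0.42, and a log2 change of −0.09 ± 0.26 without treated arrays 3 and 5. All 10 levels of PSMB5 lay below the array median of 6.61. PSMD12 probe 329022 had 11.98, 13.02, 11.16, 12.49 and 11.48 on treated arrays, against 11.97, 13.74, 11.60, 12.10 and 12.71 on untreated arrays, with treated arrays 3 and 5 the lowest of the 10. Its log2 change was −0.40 ± 0.44, and 0.07 ± 0.47 without treated arrays 3 and 5. PSMA3-AS1 also turned sign, with −0.17 ± 0.30 and 0.13 ± 0.30, while PSMD7-DT had 0.09 ± 0.50 and 0.05 ± 0.60.

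**Figure D5:**
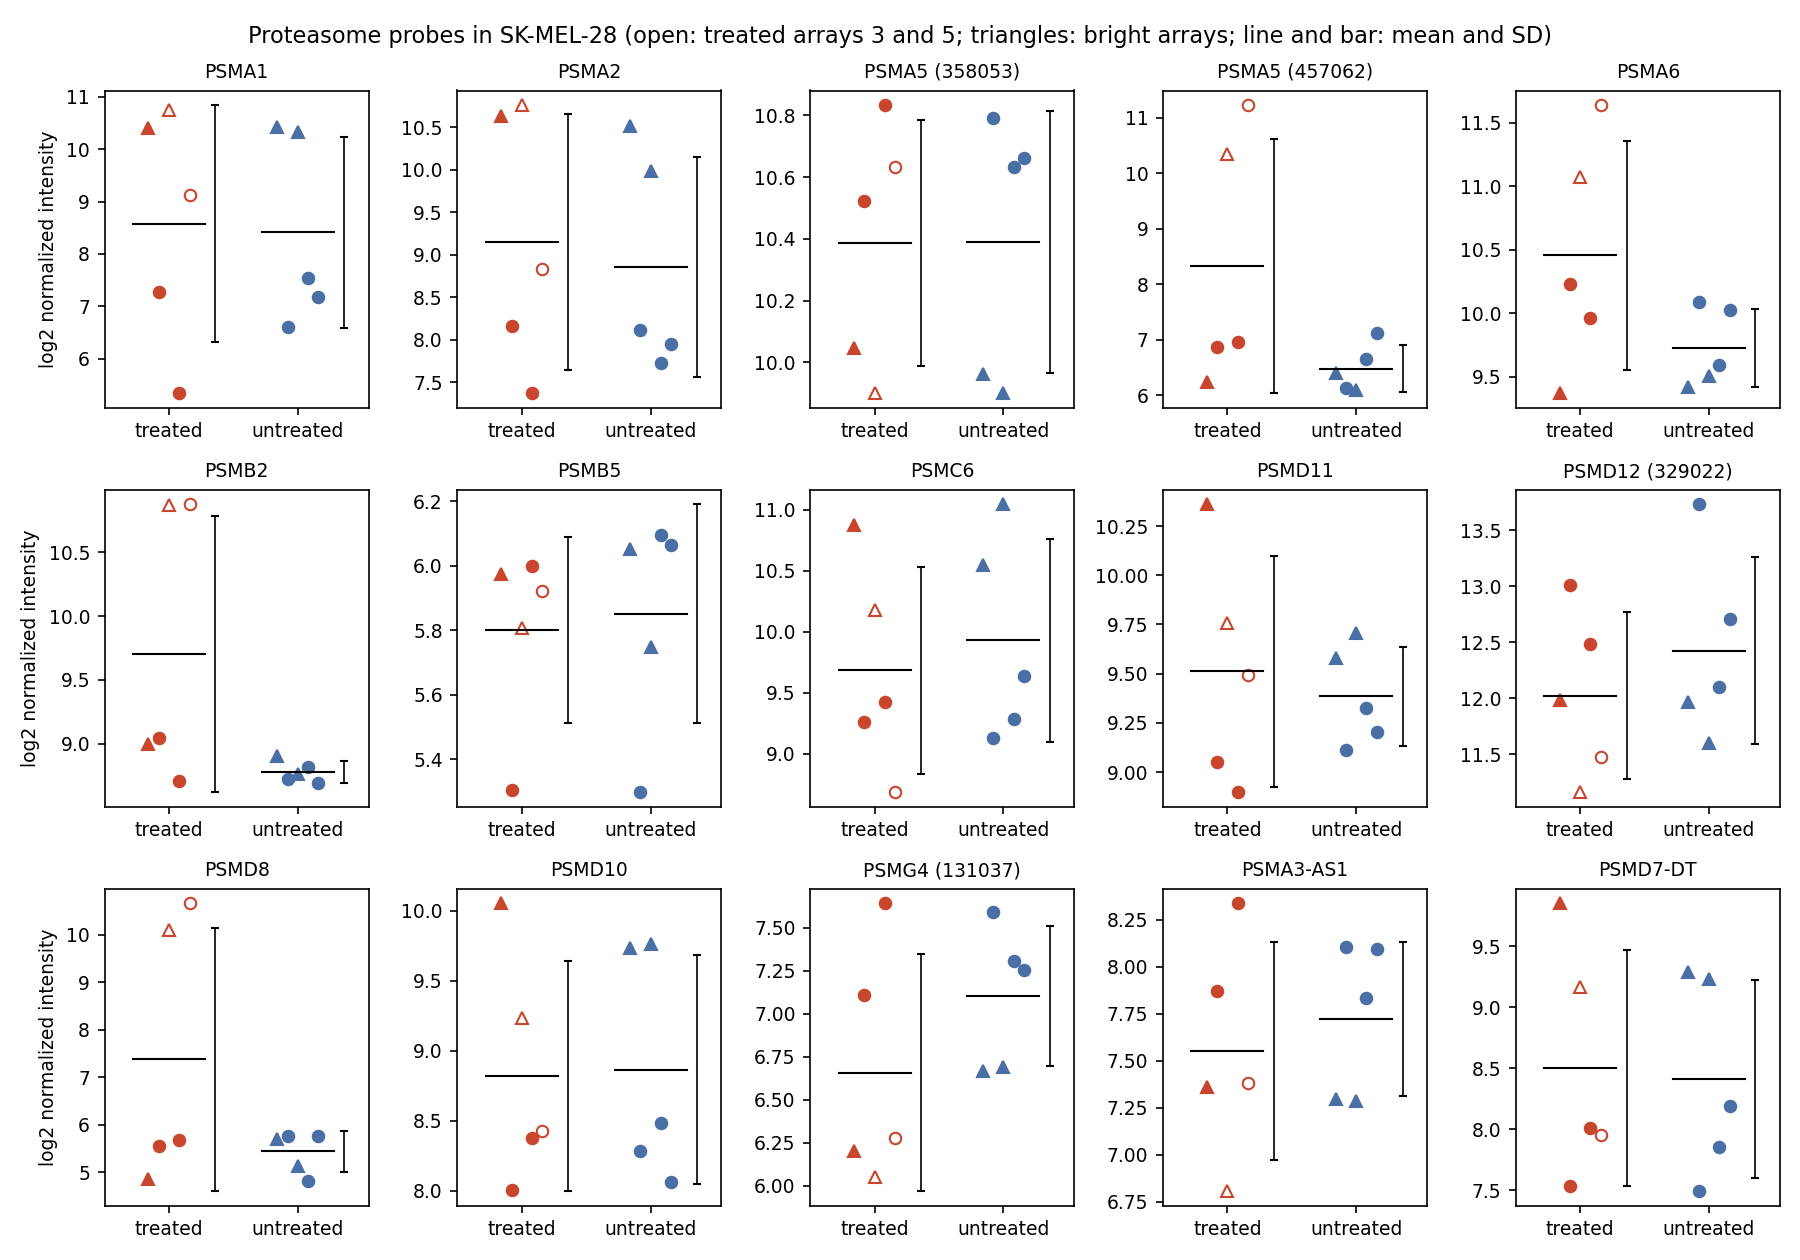
Log2 normalized intensity of the 15 proteasome probes on each SK-MEL-28 array, treated left of untreated, 1 panel per probe with its own axis. Open points are treated arrays 3 and 5, triangles are bright arrays, and lines and bars give the mean and SD; the open points of PSMD8 and PSMA5 probe 457062 lie at or above 10.10 while the other arrays lie at or below 7.12.

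The treatment effects of the lines were compared directly for the 13 members tested in both. The limma contrast, the log2 change in Mia-PaCa-2 minus that in SK-MEL-28, gave 0 members with an adjusted p under 0.05 (all probes 0.0%; smallest adjusted p of a member 0.873) and 0 with an unadjusted p under 0.05, against 291 of 5321 probes (5.47%). All 13 differences were negative, with a median of −0.42 against −0.22 over all probes, for which the share of negative differences was not counted. Without the 4 arrays that stood apart, 5 of 13 were positive and the median was −0.09, against −0.02 over all probes. The largest in size was PSMD8 at −1.67, with a 95% interval of −3.82 to 0.49, and 0.16 without those arrays. PSMB5 had a difference of −0.80, with an interval of −1.66 to 0.05 (limma, adjusted p = 0.873), and −0.56 without them. PSMB2 had −0.42 with an interval of −1.35 to 0.50, and 0.18 without them. The intervals were wide enough to hold sizable differences either way for most members.

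Genes that work with the proteasome were looked at beside its subunits, as lists of associated factors and shuttles, of ubiquitin genes, of the NRF1 pathway and of genes known to rise when the proteasome is inhibited. Of 15 probes for associated factors and shuttles in Mia-PaCa-2, 11 changes were positive and 4 negative with a median of 0.29 (0.18 without untreated arrays 4 and 5), and 1 had an unadjusted p under 0.05 (6.67%, against 9.59% of all probes). The probe with that p was for VCP, the ATPase that extracts ubiquitinated proteins, probe 400072, at 5.67, 6.40 and 6.56 on treated arrays, against 3.60, 5.72 and 6.16 on untreated arrays. Its log2 change was 0.97 ± 0.36 (limma, adjusted p = 0.501) and 0.74 ± 0.23 without those arrays, while VCP probe 76082 had 0.30 ± 0.35 and −0.16 ± 0.29. UBE3C, a ubiquitin ligase that binds the proteasome, had 0.44 ± 0.22 (0.33 ± 0.23 without those arrays). UBQLN1, a shuttle for ubiquitinated proteins, had 1.42 ± 0.83 (0.38 ± 0.23 without those arrays), with untreated array 5 at −0.61 where the other untreated arrays lay at 5.21 to 5.84.

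Of 3 ubiquitin and E1 probes, 1 change was positive and 2 negative, with UBA1, the main ubiquitin-activating enzyme, at 0.47 ± 0.37, UBB, a polyubiquitin gene, at −0.25 ± 0.24 and UBA6 at −0.01 ± 0.26. Without untreated arrays 4 and 5 they stood at 0.16 ± 0.36 for UBA1, −0.44 ± 0.24 for UBB and −0.01 ± 0.29 for UBA6. The NRF1 pathway had 4 positive and 2 negative changes over 6 probes with a median of 0.05. VCP stands in this list too, so its probes 400072 and 76082, given above, are among the positive ones. NFE2L1 itself had −0.07 ± 0.20 (−0.21 ± 0.20 without untreated arrays 4 and 5), and NGLY1, which removes the sugars of NRF1, had 0.02 ± 0.19 (0.12 ± 0.19). MAFG, a partner of NRF1 on DNA, had −0.84 ± 0.43 by probe 441011, which was −0.05 ± 0.16 without untreated arrays 4 and 5, and 0.07 ± 0.25 by probe 373051.

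Of the 10 genes known to rise on proteasome inhibition, 4 had positive and 6 negative changes with a median of −0.10 (6 and 4, and 0.17, without untreated arrays 4 and 5). By limma 3 had an unadjusted p under 0.05 (30%, against 9.59% of all probes), CHAC1 and ATF3 higher and HSPH1 lower on treated arrays. Without untreated arrays 4 and 5 the count was 2 (20%, against 5.48% of all probes). CHAC1, a stress gene that breaks down glutathione, had 5.87, 6.15 and 6.52 on treated arrays, against 4.76, 5.20 and 5.76 on untreated arrays. Every treated array lay above every untreated one, as for 0.284% of all probes in that direction. The log2 change of CHAC1 was 0.93 ± 0.20 (1.91-fold; limma, adjusted p = 0.501) and 1.05 ± 0.21 without untreated arrays 4 and 5. All its levels lay below the array median of 6.63. ATF3, a stress-induced transcription factor, had 0.50 ± 0.22 (limma, adjusted p = 0.501), and all its levels lay below that median too. Its change was 0.62 ± 0.22 without untreated arrays 4 and 5. The other positive changes were those of ZFAND2A, at 0.35 ± 0.20 (0.18 ± 0.18 without those arrays), and ATF4, at 0.29 ± 0.26 (0.18 ± 0.29). HSPH1, a heat shock protein, had −0.69 ± 0.30 (limma, adjusted p = 0.501), and −0.49 ± 0.32 without untreated arrays 4 and 5. The heat shock genes DNAJB1 and BAG3 had −0.09 ± 0.31 and −0.27 ± 0.30, and both were positive without untreated arrays 4 and 5, at 0.17 ± 0.30 and 0.16 ± 0.21. The glutathione gene GCLM had −0.12 ± 0.20 (−0.014 ± 0.17 without them) and the autophagy receptor SQSTM1 −0.24 ± 0.36 (−0.22 ± 0.43). In SK-MEL-28 only SQSTM1 (2.11 ± 1.14) and ATF4 (0.74 ± 0.54) of this list had values, with adjusted p of 0.838 and 0.846 by limma. Without treated arrays 3 and 5 these log2 changes were 1.23 ± 1.34 and −0.04 ± 0.46. SQSTM1 stood at 2.73 on untreated array 5, against 5.82 to 8.37 on the other untreated arrays, and its change was 1.21 without that array. The 4 probes for associated factors and shuttles in SK-MEL-28 had a median of 0.37 (−0.08 without treated arrays 3 and 5). The 3 NRF1 pathway probes had one of 0.15 (0.12 without them).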

How the data were processed

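The deposited table holds the authors' normalized intensity of each probe, as linear values. No source used here gives the normalization method, but the values fit a quantile normalization within each line. The authors also deposited an unnormalized intensity per array, used for the alternatives. Per the labels, the 22 arrays form 4 groups, with replicate numbers from the titles. Probes were named through the platform annotation: of 14257, 8051 had 1 symbol and 400 several.

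Here log2 of these values was tested in each line separately with limma 3.58.1 in R 4.3.3 (lmFit, eBayes), for probes with a value on at least 3 arrays per group, with Benjamini-Hochberg adjustment over all probes and a threshold of 0.05. Probes of 1 gene were kept apart. The difference between lines was a limma contrast over all 22 arrays. Tables were prepared in Python 3.11.15 (NumPy 2.4.6, pandas 2.3.3) and figures drawn with matplotlib 3.10.9. The procedure was tested on simulated data. Only the number of arrays can be given for precision, since probe depth has no count.

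In SK-MEL-28, deviations from group means correlated between arrays of the same number in 5 of 5 pairs (0.25 to 0.60), each over 0.1, so the numbers were taken to pair the arrays, though 3 of 5 pairs correlated best with their own number and the numbers also follow array brightness.

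Members, lists and tests were chosen with earlier results of these data known. Levels, as lowest, median and highest in Mia-PaCa-2 and per array in SK-MEL-28, are given for up to 3 probes of each subcomplex with the smallest p in Mia-PaCa-2, the 6 members with the smallest p in SK-MEL-28, PSMB5, PSMB6, PSMB7 and every gene with several probes. PSMA1 in SK-MEL-28 was added after its values were seen. Alternatives were the replicate block, each array left out, the arrays that stood apart left out, the unnormalized intensities with quantile normalization or median centring, the lowest 25% of probes left out, an offset of 16, array weights, probes with a value on every array and, chosen after seeing the data, the array sets.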

Additional observations from a re-analysis of the deposited data

Results flagged for a closer look

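In 4 of 116 groups of arrays, 1 array lay farther from the rest than Dixon's 95% critical value allows; chance gives about 1 group in 20. PSMC1 probe 481108 had 4.12 on treated Mia-PaCa-2 array 6, with the other treated arrays at 7.70 to 8.74. PSMD10 had 6.62 on the same array, with the others at 7.21 to 7.54. PSMA5 probe 457062 had 13.38 on treated Mia-PaCa-2 array 4, with the others at 11.81 to 12.39. PSMB5 had 5.30 on treated SK-MEL-28 array 2, with the others at 5.81 to 6.0. Their causes were not tested.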

How the results depend on the processing

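No proteasome probe had an adjusted p under 0.05 in either line under any alternative run. Of 27 probes named in Mia-PaCa-2, 21 kept their sign in every alternative, as did 4 of 8 in SK-MEL-28. Without untreated arrays 4 and 5, the Mia-PaCa-2 median was 0.059 (0.051 with the replicate block, 0.059 with the array set as a block), the members with an unadjusted p under 0.05 were 3 (1 and 5), the beta ring median 0.29 (0.19 and 0.29) and the chaperone median 0.11 (0.056 and 0.11). The ATPase median was 0.086 with that block and without those arrays. Of all 11604 probes, 636 had an unadjusted p under 0.05 without untreated arrays 4 and 5. It was 736 with the replicate block as well and 1032 with the array set as well. Array weights gave 0.090 for all members, 0.32 for the beta ring and 0.20 for the chaperones. Set A alone gave 2 members (all probes 315 of 11598), and medians of 0.32 in the alpha ring and 0.39 in the activators. Set B alone gave 5 members (all probes 1113 of 11603) and a median of 0.13 over all members. Its medians were −0.12 in the alpha ring and 0.35 in the beta ring. They were −0.030 in the non-ATPases, −0.078 in the activators and 0.48 in the chaperones. In SK-MEL-28 the count of 0 was 2 with the replicate block (all probes 10.7%). It was 1 with array weights (all probes 508 of 7973) and 1 on bright arrays alone (all probes 405 of 7910).

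Leaving out each array gave Mia-PaCa-2 medians of 0.11 to 0.25 over all members and 0.22 to 0.46 in the chaperones. The members with an unadjusted p under 0.05 were then 5 to 13. The 13 came without untreated array 1, where 1887 of 11603 probes had such a p. In SK-MEL-28 the medians were −0.094 to 0.24 with 0 to 4 members, the 4 without treated array 1 (all probes 9.04%). The difference between lines gave 0 to 3 members, the 3 without treated SK-MEL-28 array 1 (all probes 437 of 5318). The Mia-PaCa-2 numbers did not pair arrays: same-numbered arrays correlated at −0.19 to 0.44. Of the 6 pairs, 3 were over 0.1 and 2 correlated best with their own number. With the replicate block, 7 members had an unadjusted p under 0.05 (16.3%, against 10.4% of all probes). The cause of these shifts was not tested. The 5 or 6 arrays per group limit the precision.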
